A study of Mus musculus with 4 samples.

Results

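Messenger RNA of 10 transcription factor genes of mesenchymal state and skeletal fate was followed in 2 clonal mouse cell lines. The genes are the paralog pairs Twist1 and Twist2, Prrx1 and Prrx2, Snai1 and Snai2, Zeb1 and Zeb2, and Runx1 and Runx2. They were taken by name from the deposited gene tables, where each had 1 row among 23358. All 10 passed the filter on low counts, which kept 14496 genes.

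Twist proteins are basic helix-loop-helix factors that bind DNA as dimers with E proteins, and Id proteins hold E proteins away from DNA. Prrx proteins are paired-related homeodomain factors of limb, face and connective tissue mesenchyme. Snail and Zeb proteins are zinc finger repressors that bind E-boxes and switch off epithelial genes such as E-cadherin in epithelial to mesenchymal transition. Runx proteins bind DNA through the Runt domain together with their partner Cbfb. Runx1 is known for blood formation and Runx2 for bone formation.

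Both lines derive from progenitors of the gut's pacemaker cells, the interstitial cells of Cajal (ICC). The line 2xSCS70 came from gastric tunica muscularis of H-2Kb-tsA58 mice, whose transgene drives a temperature-sensitive SV40 large T antigen from the interferon-inducible H-2Kb promoter. It was grown at 39.5 °C, above the permissive temperature of that antigen, and without interferon gamma. The line 2xSCS2F10 came from the same muscle layer in the C57BL/6J strain, and its medium at 37 °C held 5% chick embryo extract. Both grew in neural stem cell proliferation medium. Each line is 1 clone with 2 libraries, so clone, strain, temperature and medium changed together and cannot be told apart. Animal age is not stated. Separate cultures are not stated for the libraries of a line, so the p-values reflect the spread between 2 libraries per line, and that spread may be technical.

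All deposited counts were even, and 1 sequenced fragment was taken as 2 counts. The libraries held 24485632 and 22368504 fragments in genes for 2xSCS70, and 20159986 and 22549451 for 2xSCS2F10, replicates 1 and 2 in that order here and below. Of the tested genes, 2727 (18.8%) were higher and 3161 (21.8%) lower in 2xSCS70 in edgeR's quasi-likelihood test with Benjamini-Hochberg adjustment at 0.05. On log2(RPKM + 1) values with limma the split was 3218 higher and 1828 lower. The replicates of 2xSCS2F10 stood further apart than those of 2xSCS70, with 12.4% against 2.72% of tested genes differing by over 2-fold. The defining receptor of mature ICC, Kit, had 0 and 1 fragments in 2xSCS70 and 0 and 0 in 2xSCS2F10, below the floor of 3 fragments. Markers of other cell types also differed between the lines. Of 8 tested smooth muscle markers 7 were lower in 2xSCS70 (summed level 840 and 778 CPM, against 5277 and 9356 CPM in 2xSCS2F10). All 6 mesothelial markers were lower as well (90.7 and 81.3 CPM in 2xSCS70, against 3453 and 4279 CPM in 2xSCS2F10). Of 8 markers of blood cells and macrophages, which use Runx1, 3 were tested and 1 was higher, with a summed level of 5.01 and 5.84 CPM in 2xSCS70 and of 4.01 and 5.56 CPM in 2xSCS2F10. Emr1 and Tyrobp were at 0 in both lines, the pan-leukocyte gene Ptprc in 2xSCS70, and Itgam and Sfpi1 in 2xSCS2F10. Of ICC markers 0 were higher and 2 lower of 3 tested, of ICC progenitor markers 2 and 1 of 5, of endothelial markers 1 and 1 of 3, and of glial markers 1 and 1 of 4. The part of these cell type markers in the results below was not tested.

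Of the 10 genes, Twist2 and Prrx2 differed most between the lines. Twist2 was expressed in 2xSCS70 and nearly absent from 2xSCS2F10, Prrx2 was the reverse, and Snai1 and Runx2 were higher in 2xSCS70. In all, 4 of the 10 genes were called, beside 40.6% of all tested genes, 3 of them higher (18.8% of all tested genes were) and 1 lower (21.8% of all tested genes were). The other 6 did not pass the test. In CPM, the libraries of the lines did not overlap for 8 of the 10 genes, beside 77.4% of all tested genes. Of these 8, 4 had 2xSCS70 above (beside 39.9%) and 4 had it below (beside 37.5%). Both counts are thus near the background. The median log2 fold change was 0.11 for the 10 genes and 0.02 for all tested genes. Of all tested genes 3.31% were called with an absolute log2 fold change above 6, as Twist2 and Prrx2 were. Fold changes are 2xSCS70 over 2xSCS2F10, and levels are in CPM (counts scaled to library size with TMM factors) unless RPKM is named. The deposited RPKM divides by gene length and by a fixed read number per library, without TMM factors. RPKM therefore also differs from CPM in its scaling between libraries and lines. Values after ± are SDs over the 2 libraries of a line.

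**Figure D1:**
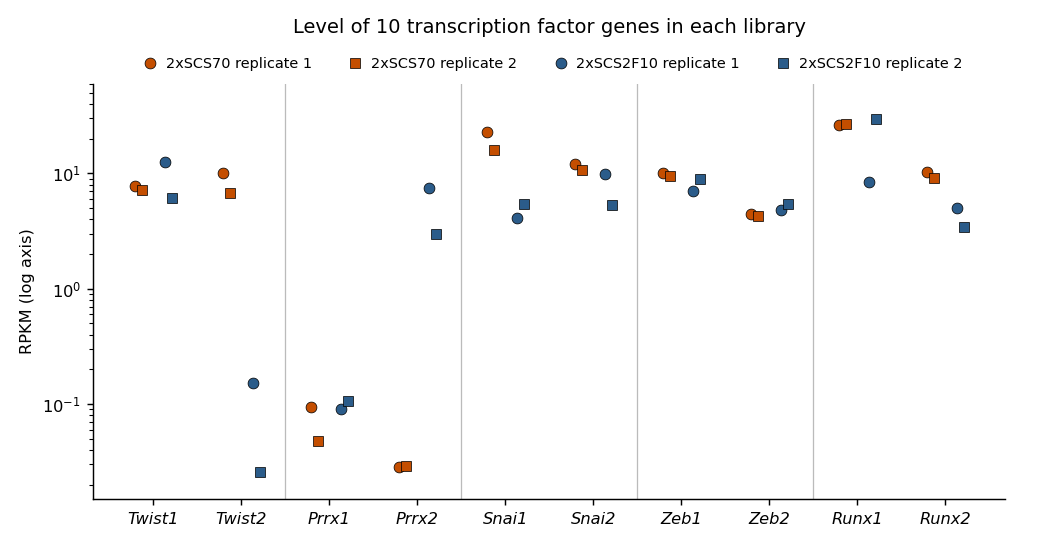
RPKM of each gene in each library, on a log axis, with circles for replicate 1 and squares for replicate 2, and vertical lines between the pairs of paralogs. Twist2 lies at 10.1 and 6.71 RPKM in 2xSCS70 against 0.151 and 0.0258 RPKM in 2xSCS2F10, Prrx2 shows the opposite order, and Prrx1 is low in all 4 libraries.

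Twist1 and Twist2 are closely related repressors and activators of mesenchyme, and both hold back osteoblast maturation in mice. Twist2 (chromosome 1, 91801477 to 91848027, mm10) had 416 and 271 fragments in 2xSCS70, against 5 and 1 fragments in 2xSCS2F10. These made 15.1 and 11.1 CPM in 2xSCS70, against 0.257 and 0.0525 CPM in 2xSCS2F10. Both 2xSCS70 libraries lay far above both 2xSCS2F10 libraries, and replicate 2 of 2xSCS2F10 was below its floor of 0.157 CPM. The level was 82.9-fold higher in 2xSCS70 (log2 6.37, SE 0.57, edgeR quasi-likelihood adjusted p = 0.00216). The ratio of the summed fragments, 687 against 6 before scaling by TMM-adjusted library size, was 85.0 after it, with an exact 95% interval of 38.8 to 232 that covers counting error only. With so few fragments in 2xSCS2F10, the fold moved to 236 without 2xSCS2F10 replicate 1 and to 50.5 without its replicate 2. In such bulk RNA, fewer expressing cells and less RNA per cell cannot be told apart. Whether the libraries or the counting kept strand is not stated. The antisense gene Gm29100 shares 1477 of the 3174 exonic bases of Twist2 in GENCODE M21. Without strand, reads of the pair cannot be told apart there. The counted Twist2 row has a coding length of 1312 bases, and how much of it Gm29100 shares was not tested. The same holds for the GENCODE overlaps of other genes below.

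Twist1 (chromosome 12, 33957671 to 33959831) was expressed in both lines, with 14.5 and 14.9 CPM in 2xSCS70 against 26.6 and 15.6 CPM in 2xSCS2F10. The first 2xSCS2F10 library was high, and the second lay just above 2xSCS70 in CPM. In RPKM that second library (6.17) lay below 2xSCS70 (7.82 and 7.22). The log2 fold change of -0.52 (SE 0.28, edgeR adjusted p = 0.19) missed the threshold. It depended on the 2xSCS2F10 library used, at -0.10 without replicate 1 and -0.86 without replicate 2. Per length, Twist2 held 56.3% and 48.2% of the RPKM of the Twist pair in 2xSCS70, against 1.18% and 0.417% in 2xSCS2F10. The pair as a whole summed to 17.9 and 13.9 RPKM in 2xSCS70 and to 12.7 and 6.2 RPKM in 2xSCS2F10. Thus 2xSCS70 carried both Twist mRNAs at like levels, while Twist1 made up nearly the whole pair in 2xSCS2F10.

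Prrx1 and Prrx2 overlap in function in limb and craniofacial mesenchyme of the mouse. Prrx2 (chromosome 2, 30845367 to 30881247) had 1 fragment in each 2xSCS70 library, against 211 and 100 fragments in 2xSCS2F10. That is 0.0363 and 0.0411 CPM in 2xSCS70, below the floors of 0.109 and 0.123 CPM, against 10.8 and 5.25 CPM in 2xSCS2F10. Replicate 1 of 2xSCS2F10 was 2.07-fold above replicate 2, and both lay far above 2xSCS70. Prrx2 fell in 2xSCS70 (log2 -7.61, SE 0.63, edgeR adjusted p = 0.00171). With only 2 fragments in 2xSCS70 the size is best given as a ratio, which after scaling was 209 in favour of 2xSCS2F10 (exact 95% interval 57.5 to 1738). The fitted fold of 195 became 129 without 2xSCS2F10 replicate 1.

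Prrx1 (chromosome 1, 163245119 to 163313650) was near the bottom of the tested range in both lines. It had 22 and 11 fragments in 2xSCS70 and 17 and 23 in 2xSCS2F10, or 0.798 and 0.452 CPM in 2xSCS70 and 0.873 and 1.21 CPM in 2xSCS2F10. The ranges did not overlap in CPM, but they did in RPKM (0.0939 and 0.048 in 2xSCS70, 0.0905 and 0.105 in 2xSCS2F10). The log2 fold change of -0.73 (SE 0.45, edgeR adjusted p = 0.242) did not pass the test. The Prrx pair summed to 0.122 and 0.0768 RPKM in 2xSCS70, against 7.5 and 3.11 RPKM in 2xSCS2F10. Prrx2 made 98.8% and 96.6% of that sum in 2xSCS2F10. In 2xSCS70 the shares of 23.1% and 37.5% rest on 1 fragment per library. Both Prrx mRNAs were therefore low in 2xSCS70, and neither passed 0.1 RPKM there.

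The promoter windows of the 2 genes with near-absent transcripts are shown because these genes have the largest fold changes of the 10. They come from RefSeq on GRCm38.p6, the build also called mm10, and run from 250 bases before to 50 bases after an annotated start, 5′ to 3′ on the strand of the gene. Capitals mark CG dinucleotides. The Twist2 window (chr1:91801211-91801510, plus strand) holds 25 and the Prrx2 window (chr2:30845117-30845416, plus strand) holds 28, beside a median of 7 over 32841 promoter windows.
Twist2: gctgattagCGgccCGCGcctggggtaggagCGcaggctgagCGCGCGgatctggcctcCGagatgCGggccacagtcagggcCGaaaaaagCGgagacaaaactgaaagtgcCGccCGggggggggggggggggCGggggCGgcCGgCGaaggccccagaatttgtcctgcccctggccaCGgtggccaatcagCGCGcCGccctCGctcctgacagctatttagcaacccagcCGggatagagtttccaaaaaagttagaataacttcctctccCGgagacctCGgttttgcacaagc
Prrx2: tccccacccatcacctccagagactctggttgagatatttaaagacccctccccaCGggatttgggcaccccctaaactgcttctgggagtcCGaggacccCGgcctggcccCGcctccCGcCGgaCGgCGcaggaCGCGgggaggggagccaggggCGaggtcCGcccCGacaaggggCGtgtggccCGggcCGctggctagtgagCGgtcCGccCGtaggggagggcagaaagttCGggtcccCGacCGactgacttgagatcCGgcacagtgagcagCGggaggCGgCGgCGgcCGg
The partner windows held 27 CG for Twist1, which is expressed in both lines, and 6 for Prrx1, which is low in both. DNA methylation was not measured here.

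**Figure D2:**
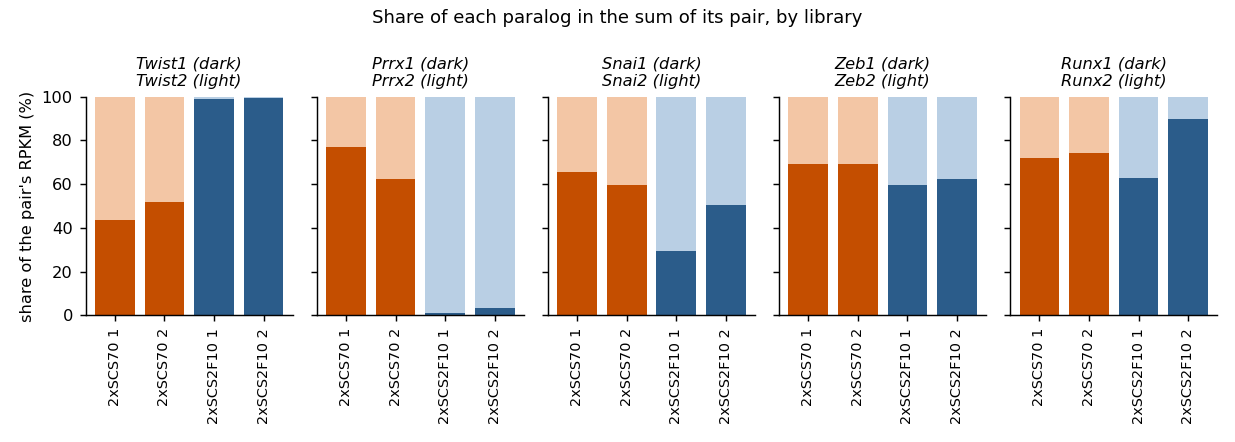
Share of each paralog in the summed RPKM of its pair, in percent, in each library, with the first paralog dark and the second light. Twist2 and Prrx1 hold visible shares in 2xSCS70 and almost none in 2xSCS2F10. Prrx1 is low in both lines, however, and its share in 2xSCS70 stands beside 1 Prrx2 fragment per library. The Snail, Zeb and Runx pairs are mixed in all 4 libraries.

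Snai1 differed between the lines, and its paralog Snai2 did not pass the test. Snai1 (Snail, chromosome 2, 167538227 to 167542811) is an unstable repressor of epithelial genes that is induced early in epithelial to mesenchymal transition. It had 41.7 and 32.0 CPM in 2xSCS70, against 8.48 and 13.2 CPM in 2xSCS2F10. Both 2xSCS70 libraries stood above both 2xSCS2F10 libraries. Snai1 rose 3.39-fold (log2 1.76, SE 0.27, edgeR adjusted p = 0.00855). Leaving out 2xSCS70 replicate 1 ended the call (log2 1.56, adjusted p = 0.0893), as did leaving out its replicate 2 (log2 1.94, adjusted p = 0.0641).

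Snai2 (Slug, chromosome 16, 14705859 to 14709382), a repressor also needed by neural crest cells in chick, had 27.7 and 27.4 CPM in 2xSCS70 and 25.9 and 16.5 CPM in 2xSCS2F10. Replicate 1 of 2xSCS2F10 was close to 2xSCS70 and replicate 2 was lower (log2 fold change 0.38, SE 0.24, edgeR adjusted p = 0.258). The value was 0.73 without 2xSCS2F10 replicate 1 and 0.08 without its replicate 2. Snai1 made 65.6% and 59.7% of the RPKM of the Snail pair in 2xSCS70, against 29.3% and 50.4% in 2xSCS2F10. The pair summed to 35.1 and 26.7 RPKM in 2xSCS70, against 14.1 and 10.7 RPKM in 2xSCS2F10.

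Snail and Zeb zinc fingers bind the E-box CAGGTG, and Snail protein is known to bind the promoter of its own gene. The Snai1 window (RefSeq, GRCm38.p6, chr2:167537945-167538244, plus strand) is shown because it holds that sequence once, read as CACCTG on the strand of the gene and given in capitals, beginning 126 bases before the start.
Snai1: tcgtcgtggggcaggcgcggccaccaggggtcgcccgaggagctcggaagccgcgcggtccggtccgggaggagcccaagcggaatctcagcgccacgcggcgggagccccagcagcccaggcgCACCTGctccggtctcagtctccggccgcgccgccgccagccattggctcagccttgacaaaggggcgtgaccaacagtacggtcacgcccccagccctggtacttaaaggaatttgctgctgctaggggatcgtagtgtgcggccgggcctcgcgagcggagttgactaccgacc
CAGGTG, searched on both strands, is found in 20.2% of all 32841 windows, so such a match is common, and it is a description and not a site.

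Neither Zeb gene passed the test. Zeb1 and Zeb2 are large repressors with zinc finger clusters at both ends, and they act on E-cadherin in parallel with Snail. Zeb1 (chromosome 18, 5591860 to 5775468) had 66.5 and 70.1 CPM in 2xSCS70, against 52.4 and 80.7 CPM in 2xSCS2F10. In CPM the 2xSCS2F10 libraries thus enclosed those of 2xSCS70. In RPKM Zeb1 was higher in both 2xSCS70 libraries (10 and 9.54) than in 2xSCS2F10 (6.97 and 8.97). Its log2 fold change was 0.04 (SE 0.23, edgeR adjusted p = 0.907). It depended on the 2xSCS2F10 library used, at -0.25 without replicate 1 and 0.38 without replicate 2.

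Zeb2 (chromosome 2, 44983634 to 45113279) had 46.6 and 49.0 CPM in 2xSCS70 and 56.4 and 76.6 CPM in 2xSCS2F10. The ranges did not overlap, with 2xSCS70 lower, and the log2 fold change of -0.48 (SE 0.18, edgeR adjusted p = 0.0927) missed the threshold. The value was -0.69 without 2xSCS2F10 replicate 1 and -0.24 without its replicate 2. Zeb1 made 69.1% and 69.2% of the RPKM of the Zeb pair in 2xSCS70, against 59.4% and 62.3% in 2xSCS2F10. With 2 libraries against 2 an exact two-sided permutation test of any such share cannot go below p = 0.333. On the other strand in GENCODE M21, Zeb2os shares 653 exonic bases with Zeb2, and Gm10125 shares 198 with Zeb1.

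Of the Runx pair, Runx2 was called between the lines and Runx1 was not. The mean RPKM of Runx1 was the highest of the 10 genes in each line, but in replicate 1 of 2xSCS2F10 it had 8.5 RPKM, below Twist1 at 12.6 and Snai2 at 9.95 RPKM. Runx2 (chromosome 17, 44604001 to 44814797), the master factor of osteoblasts, had 80.5 and 80.6 CPM in 2xSCS70, against 45.0 and 36.7 CPM in 2xSCS2F10. The 2xSCS70 libraries were nearly equal, and both stood above 2xSCS2F10. Runx2 rose 1.97-fold (log2 0.98, SE 0.15, edgeR adjusted p = 0.00787). The size held at log2 0.98 without 2xSCS70 replicate 1 and without its replicate 2, but the call ended (adjusted p = 0.0968 and 0.0987). The row of Supt3h overlaps Runx2 in the tables and had 9.36 and 11.2 CPM in 2xSCS70, against 14.5 and 14.1 CPM in 2xSCS2F10, lower where Runx2 was higher. On the other strand in GENCODE M21, Runx2os1 shares 519 exonic bases with Runx2, and Gm26626 shares 106 with Runx1.

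Runx1 (chromosome 16, 92601466 to 92826066) had 221 and 249 CPM in 2xSCS70, against 81.2 and 336 CPM in 2xSCS2F10. One 2xSCS2F10 library thus lay below both 2xSCS70 libraries and the other above both. The means were 235 ± 19.5 CPM in 2xSCS70 and 209 ± 180 CPM in 2xSCS2F10 (SD, n = 2 libraries each), and the log2 fold change of 0.17 (SE 0.63, edgeR adjusted p = 0.841) did not pass. It turned to -0.53 without 2xSCS2F10 replicate 1 and became 1.53 without replicate 2. Runx1 made 72.1% and 74.4% of the RPKM of the Runx pair in 2xSCS70, against 62.9% and 89.6% in 2xSCS2F10.

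**Figure D3:**
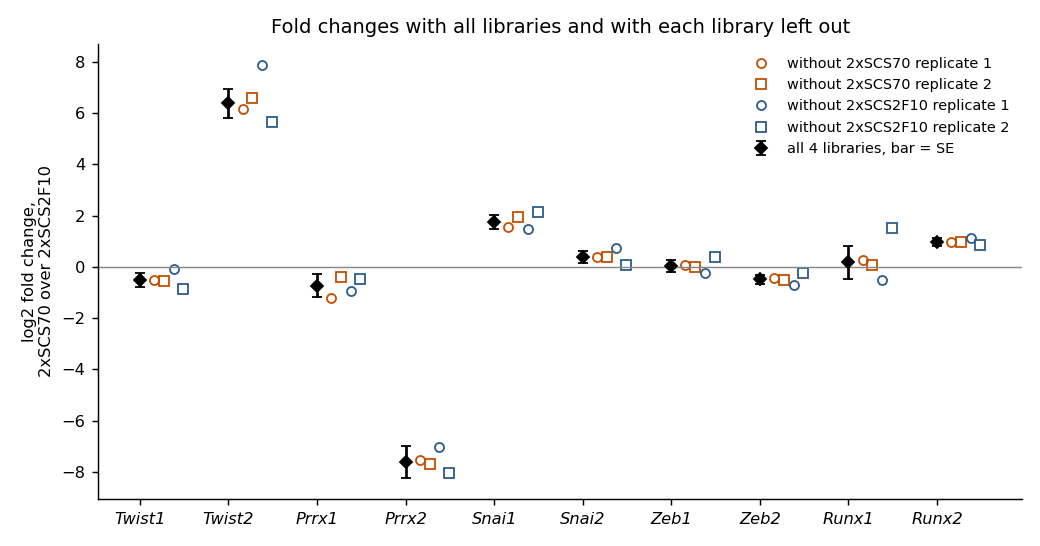
Log2 fold change of each gene, 2xSCS70 over 2xSCS2F10, with all 4 libraries (diamond, bar = SE) and with each library left out (open symbols). Twist2 and Prrx2 keep far from 0, at 5.66 to 7.88 and -8.04 to -7.01, while Runx1 goes from -0.53 to 1.53 depending on the 2xSCS2F10 library left out.

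Shown next are the distal Runx1 promoter, the 1 Runx2 promoter window available and the first promoter of Runx3, a relative also higher in 2xSCS70. They are shown because each carries the Runx-binding core TGTGGT as a tandem pair. The pair reads ACCACA, any 2 bases, ACCACA on the strand of the gene, and each TGTGGT match (ACCACA) is in capitals, as is CAGGTG. The windows are from RefSeq on GRCm38.p6, at chr16:92826025-92826324 (minus strand) for Runx1, chr17:44814578-44814877 (minus strand) for Runx2 and chr4:135120395-135120694 (plus strand) for Runx3.
Runx1 distal: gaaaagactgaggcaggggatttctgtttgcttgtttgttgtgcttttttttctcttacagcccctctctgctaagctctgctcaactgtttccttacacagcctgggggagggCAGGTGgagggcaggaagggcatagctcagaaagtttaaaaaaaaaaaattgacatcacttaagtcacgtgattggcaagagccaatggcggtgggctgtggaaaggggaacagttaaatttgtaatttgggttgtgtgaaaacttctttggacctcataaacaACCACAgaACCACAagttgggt
Runx2: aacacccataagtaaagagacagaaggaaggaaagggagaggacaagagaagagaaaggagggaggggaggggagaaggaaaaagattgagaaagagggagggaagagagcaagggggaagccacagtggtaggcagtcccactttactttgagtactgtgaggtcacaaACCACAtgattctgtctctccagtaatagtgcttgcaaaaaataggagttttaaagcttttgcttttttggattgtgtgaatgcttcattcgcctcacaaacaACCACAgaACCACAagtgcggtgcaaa
Runx3: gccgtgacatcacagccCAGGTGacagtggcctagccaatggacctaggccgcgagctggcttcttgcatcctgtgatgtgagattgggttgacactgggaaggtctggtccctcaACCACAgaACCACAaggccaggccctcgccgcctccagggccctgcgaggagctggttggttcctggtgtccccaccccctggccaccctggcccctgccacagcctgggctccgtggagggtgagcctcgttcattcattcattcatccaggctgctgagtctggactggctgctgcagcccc
In Runx1 the pair begins 29 and 37 bases after the start, in Runx2 24 and 32 bases after it with a further match 80 bases before it, and in Runx3 134 and 126 bases before it. Runx1 and Runx2 share an unbroken run of 22 bases around the pair, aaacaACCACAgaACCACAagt. TGTGGT on either strand is found in 16.8% of all 32841 windows, and 2 or more copies in 1.81%. The tandem pair, on either strand, is found in 7 windows (0.0213%), those of Runx1, Runx2, Runx3, Gm12236, Gm15462, Gm16225 and Olfr24. The second, proximal Runx1 window holds neither motif and 35 CG. These matches describe the sequence only, and the counts do not tell transcripts of different promoters of a gene apart.

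Per length, the order of the 10 genes differed between the lines. In 2xSCS70 Runx1 led at 26.5 RPKM, followed by Snai1 at 19.5 and Snai2 at 11.4 RPKM, whose library ranges did not overlap each other. Zeb1 (9.79 RPKM), Runx2 (9.69), Twist2 (8.39) and Twist1 (7.52) then overlapped from neighbour to neighbour. Zeb2 followed apart at 4.37 RPKM, and Prrx1 (0.0709) and Prrx2 (0.0285) were far below. In 2xSCS2F10 the mean of Runx1 was again the highest at 19 RPKM, but from Runx1 through Twist1 (9.38), Zeb1 (7.97), Snai2 (7.62), Prrx2 (5.2), Zeb2 (5.1), Snai1 (4.75) and Runx2 (4.22 RPKM) each gene overlapped its neighbour. Only Prrx1 (0.0975) and Twist2 (0.0884 RPKM) stood apart below, overlapping each other. Snai1, the second gene in 2xSCS70, thus ranked seventh by mean in 2xSCS2F10.

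Of the 10 genes, Runx1 also differed most between replicates on the log2 CPM scale, which has a prior count of 2. Replicate 2 minus replicate 1 of 2xSCS2F10 was log2 2.05, or 4.14-fold, for Runx1, against 0.17 in 2xSCS70. Of all tested genes 97.8% differed less between the 2xSCS2F10 replicates and 321 differed more. Zeb1, Zeb2, Snai1 and Prrx1 were also higher in replicate 2 of 2xSCS2F10, by log2 0.44 to 0.64. Twist1, Twist2, Prrx2, Snai2 and Runx2 were lower in it, by log2 values of -0.77, -1.64, -1.04, -0.65 and -0.29. In CPM without the prior count Twist2 differed more than Runx1, by 4.89-fold, on 5 and 1 fragments. In 2xSCS70 the 10 genes differed by -0.76 to 0.17, and the largest of these was Prrx1, with few fragments. With 1 library on each side these differences have no test.

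**Figure D4:**
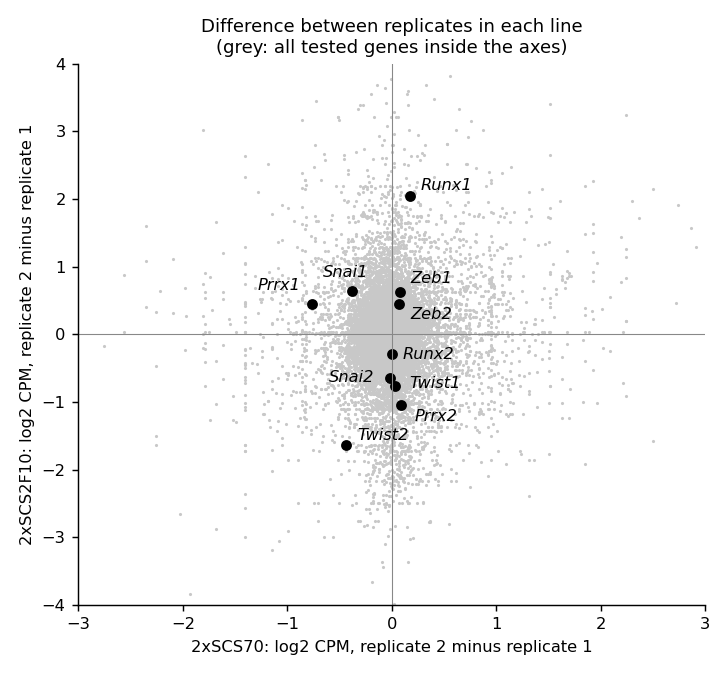
Log2 CPM of replicate 2 minus replicate 1 in 2xSCS70 (horizontal axis) and 2xSCS2F10 (vertical axis) for the 10 genes (black) and all tested genes inside the axes (grey). Runx1 lies at 2.05 in 2xSCS2F10 and 0.17 in 2xSCS70, and the 10 genes spread more along the vertical axis than along the horizontal one.

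Of the 4 Id genes, inhibitors of Twist partners, Id1, Id2 and Id3 also differed between the 2xSCS2F10 libraries, and they are described here after their values were seen. Id4 differed less and in the other direction there, with 0.544 and 0.74 CPM in 2xSCS70 against 4.93 and 7.61 CPM in 2xSCS2F10. Id1 had 20.8 and 22.5 CPM in 2xSCS70, against 87 and 16.2 CPM in 2xSCS2F10. Id2 had 5.62 and 6.49 CPM in 2xSCS70 and 8.32 and 0.997 CPM in 2xSCS2F10, and Id3 had 48.5 and 45.8 CPM in 2xSCS70 and 69.3 and 12.6 CPM in 2xSCS2F10. Id1, Id2 and Id3 were high in the 2xSCS2F10 library in which Runx1 was low, and none passed the test between the lines (edgeR adjusted p = 0.232, 0.754 and 0.842). Their signs, like that of Runx1, turned with the 2xSCS2F10 library left out, to 0.41 for Id1 without replicate 1 and to -0.46 for Id2 and -0.56 for Id3 without replicate 2. These 3 genes were among 6 of the 112 tested genes of the lists described next that differed by over 4-fold between the 2xSCS2F10 replicates, beside 2.36% of all tested genes.

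Genes that work with, under or upstream of these factors were taken in 10 lists of 140 genes, of which 112 were tested. Of these, 25 (22.3%) were higher and 40 (35.7%) lower in 2xSCS70, against 18.8% and 21.8% of all tested genes, with a median log2 fold change of -0.12. Without 2xSCS70 replicate 1 the counts became 4 and 11, and without its replicate 2 they became 5 and 8. Below, the genes that remained called in those cases are named list by list.

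Among relatives of the factors, 5 of 14 genes were tested, 2 rose and 1 fell, with a median of 0.26. Shox2, a homeobox gene of limb and sinus node, had 8.49 and 7.19 CPM in 2xSCS70, against 0.565 and 0.315 CPM in 2xSCS2F10 (17.7-fold higher, SE 0.36 on the log2 scale, edgeR adjusted p = 0.002). Runx3, the remaining Runx gene, was 3.48-fold higher at a low level (1.63 ± 0.211 CPM in 2xSCS70 and 0.466 ± 0.14 CPM in 2xSCS2F10, adjusted p = 0.0204). Hand2, a Twist-related factor of limb and gut mesenchyme, was 4.73-fold lower (2.46 ± 0.0555 CPM in 2xSCS70 and 11.7 ± 4.88 CPM in 2xSCS2F10, adjusted p = 0.0088). Shox2 stayed called without either 2xSCS70 library (adjusted p = 0.0423 and 0.0388), while Runx3 (0.167 and 0.128) and Hand2 (0.0989 and 0.102) were lost.

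Of the 7 E protein and Id genes, the dimer partners of Twist and their inhibitors, 2 rose and 1 fell (median 0.38). The E proteins Tcf4 (1.68-fold, 51.5 ± 3.5 CPM in 2xSCS70 and 30.7 ± 1.42 CPM in 2xSCS2F10, edgeR adjusted p = 0.0114) and Tcf12 (1.49-fold, 169 ± 1.07 CPM in 2xSCS70 and 114 ± 3.9 CPM in 2xSCS2F10, adjusted p = 0.0147) rose. Id4 was 9.76-fold lower (0.642 ± 0.138 CPM in 2xSCS70 and 6.27 ± 1.89 CPM in 2xSCS2F10, adjusted p = 0.00365). With 2xSCS70 replicate 1 left out the adjusted p of these 3 genes was 0.112, 0.17 and 0.0641, and with its replicate 2 left out it was 0.152, 0.164 and 0.0562, so all 3 calls ended.

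Of the 10 partners and corepressors of Runx, 2 rose and 5 fell (median -0.22), against 4 higher and 4 lower on both RPKM scales (medians 0.00 and 0.02). Cbfb, the obligate partner, was 1.48-fold higher (193 ± 16.2 CPM in 2xSCS70 and 130 ± 0.439 CPM in 2xSCS2F10, edgeR adjusted p = 0.0199), and it is named here after its value was seen. Of the Groucho corepressors Tle4 was 4.85-fold lower (7.15 ± 0.924 CPM in 2xSCS70 and 34.7 ± 4.1 CPM in 2xSCS2F10, adjusted p = 0.00156) and Tle1 3.32-fold lower (10.9 ± 1.25 CPM in 2xSCS70 and 36.1 ± 1.91 CPM in 2xSCS2F10, adjusted p = 0.0021). The ETO corepressors went apart, with Cbfa2t3 13.6-fold higher (adjusted p = 0.00382) and Runx1t1 7.84-fold lower (adjusted p = 0.00493), both under 4 CPM. Cbfa2t3 had 45 and 48 fragments in 2xSCS70, against only 3 and 2 in 2xSCS2F10. Its log2 change of 3.77 was 0.23 on log2(RPKM + 1) and 1.36 on log2(RPKM + 0.1) values, where it stayed called. Without 2xSCS70 replicate 1 only Tle1 (adjusted p = 0.0443) and Tle4 remained called, and without replicate 2 only Tle4 did, with Cbfb at 0.138 and 0.215. Of 10 corepressors of Snail and Zeb, Rcor1 (1.6-fold, adjusted p = 0.0148), Hdac1 (1.36-fold, 0.0382) and Sin3a (1.33-fold, 0.045) rose and the other 7, with Ctbp1 and Ctbp2 among them, did not pass, and 0 were called with either 2xSCS70 library left out. With no filter on low counts Rcor1 was the 1 gene called, and Sin3a was also lost on both RPKM scales.

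Among epithelial genes, several of them known targets of Snail and Zeb repression, 11 of 21 were tested, 6 fell and 2 rose. The median was -2.72, against -0.23 on log2(RPKM + 1) and -1.29 on log2(RPKM + 0.1) values. On both RPKM scales 6 were lower and 4 higher. The untested genes had at most 5 fragments in any library of either line, with Epcam and Ovol2 at 0 in all 4 libraries. E-cadherin Cdh1 had 9 and 6 fragments in 2xSCS70, against 244 and 126 in 2xSCS2F10 (33-fold lower, SE 0.46 on the log2 scale, edgeR adjusted p = 0.00223). The splicing regulator Esrp2 was 6.6-fold lower (5.16 ± 0.2 CPM in 2xSCS70 and 34.1 ± 6.83 CPM in 2xSCS2F10, adjusted p = 0.00131), and the keratin Krt8 13-fold lower (15.7 ± 1.32 CPM in 2xSCS70 and 205 ± 47 CPM in 2xSCS2F10, adjusted p = 7.35e-04). The keratin Krt19 was 218-fold lower (0.489 ± 0.284 CPM in 2xSCS70 and 109 ± 81.9 CPM in 2xSCS2F10, adjusted p = 0.00349), a fold of 102 without 2xSCS2F10 replicate 1, of 332 without its replicate 2 and of 373 without 2xSCS70 replicate 1. Against this direction Krt18, the usual partner of Krt8, was 4.13-fold higher (466 ± 60.6 CPM in 2xSCS70 and 113 ± 55.4 CPM in 2xSCS2F10, adjusted p = 0.0128), and 6.28-fold without 2xSCS2F10 replicate 1. Elf3, an epithelial ETS factor, was higher by a ratio of 19.3 with 2 fragments in 2xSCS2F10 (exact 95% interval 5.08 to 164), and its fitted fold of 18.5 became 9.34 without 2xSCS2F10 replicate 1 and 386 without replicate 2. Krt18 and Elf3 are named after their values were seen. Cdh1, Krt8 and Esrp2 stayed called without either 2xSCS70 library, Krt19 only without replicate 1 (0.048, against 0.0535 without replicate 2), and Krt18 (0.101 and 0.0842) and Elf3 (0.111 and 0.145) in neither case. Mesothelium also expresses Krt8, Krt18 and Krt19, and its markers were lower in 2xSCS70 as given above.

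The mesenchymal list was mixed. Of 20 tested genes 5 rose, 6 fell and 9 did not pass (median -0.40). On log2(RPKM + 1) and log2(RPKM + 0.1) values 5 were higher and 4 lower, with medians of -0.01 and 0.03. Periostin Postn, a matrix protein known as a Twist1 target in mice, was 65.7-fold higher (1154 ± 12.6 CPM in 2xSCS70 and 17.6 ± 3.97 CPM in 2xSCS2F10, edgeR adjusted p = 4.07e-04), and the receptor Pdgfrb 4.47-fold higher (151 ± 1.85 CPM in 2xSCS70 and 33.8 ± 6.2 CPM in 2xSCS2F10, adjusted p = 0.00149). The type I collagen chain Col1a2 was 13.6-fold lower (1091 ± 57.3 CPM in 2xSCS70 and 14782 ± 5636 CPM in 2xSCS2F10, adjusted p = 0.00274) and the gelatinase Mmp2 17.2-fold lower (46.2 ± 0.985 CPM in 2xSCS70 and 796 ± 412 CPM in 2xSCS2F10, adjusted p = 0.00288). Vimentin Vim, named after its value was seen, had 1828 and 1636 CPM in 2xSCS70 and 2149 and 1617 CPM in 2xSCS2F10 (log2 -0.12, adjusted p = 0.659), and its sign turned on RPKM values (log2 0.13) and without 2xSCS2F10 replicate 1 (log2 0.09). Postn and Pdgfrb stayed called without either 2xSCS70 library, and Col1a2 (0.0823 and 0.0859) and Mmp2 (0.0568 and 0.0561) did not. Mmp2 was 10.9-fold lower without 2xSCS2F10 replicate 2.

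In the osteoblast list 12 of 20 genes were tested, 4 rose and 6 fell. The median was -1.61, against -1.04 on log2(RPKM + 1) and -1.33 on log2(RPKM + 0.1) values. The untested genes had at most 5 fragments in any library of either line. Among them Ibsp had 0 in all 4 libraries, and Bglap, Bglap2 and Dmp1 had at most 2 in any. Osteopontin Spp1 was 6.87-fold lower (46.8 ± 0.621 CPM in 2xSCS70 and 322 ± 59.4 CPM in 2xSCS2F10, edgeR adjusted p = 8.89e-04). The bone morphogen Bmp2 had 0 counts in both 2xSCS70 libraries and 75 and 69 fragments in 2xSCS2F10, at least 30.3-fold lower against the floor of 3 fragments per library (adjusted p = 0.00199). Osteoprotegerin Tnfrsf11b had 3 fragments in 2xSCS70 and a ratio of 660 in favour of 2xSCS2F10 (exact 95% interval 225 to 3203, adjusted p = 0.00387). The parathyroid hormone receptor Pth1r was 14.2-fold higher (3.71 ± 0.545 CPM in 2xSCS70 and 0.26 ± 0.00394 CPM in 2xSCS2F10, adjusted p = 0.002). Sp7 and Msx1 are named after their values were seen. Sp7, the osteoblast factor downstream of Runx2, had 14 and 3 fragments in 2xSCS70 and 73 and 92 in 2xSCS2F10 (13.3-fold lower, adjusted p = 0.0108), and Msx1 was higher by a ratio of 120 with 1 fragment in 2xSCS2F10 (21.1 to 4749). Spp1, Pth1r and Bmp2 stayed called without either 2xSCS70 library, Sp7 without replicate 1 (0.0393, against 0.0605 without replicate 2), Msx1 without replicate 2 (0.0435, against 0.0572 without replicate 1), and Tnfrsf11b in neither case (0.0593 in both). The fitted fold of Tnfrsf11b, 635, became 1024 without 2xSCS2F10 replicate 1 and 256 without replicate 2, and that of Msx1, 106, became 1156 and 56.6. That of Sp7 became 34 without 2xSCS70 replicate 1 and 8.4 without replicate 2.

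Cartilage genes were tested for 11 of 12, of which 1 rose and 4 fell (median -1.27, against -0.09 on log2(RPKM + 1) and -0.51 on log2(RPKM + 0.1) values, with the same counts). The minor fibrillar collagen chain Col11a1 was 286-fold lower (2.91 ± 0.343 CPM in 2xSCS70 and 834 ± 632 CPM in 2xSCS2F10, edgeR adjusted p = 0.00231), with a fold of 442 without 2xSCS2F10 replicate 1 and of 133 without replicate 2. The chondrocyte factors went apart, with Sox6 16.3-fold (adjusted p = 0.00816, and 8.21-fold and 24.5-fold without 2xSCS2F10 replicates 1 and 2) and Sox5 3.66-fold lower (adjusted p = 0.00829) and Sox9, named after its value was seen, 2.92-fold higher (22.7 ± 3.33 CPM in 2xSCS70 and 7.75 ± 2.39 CPM in 2xSCS2F10, adjusted p = 0.0114). Col11a1 alone stayed called without either 2xSCS70 library, the others reaching adjusted p of 0.0845 to 0.13.

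Of 18 tested signals and receptors that act upstream of these factors, 8 fell and 2 rose (median -0.39). On log2(RPKM + 1) values 4 were lower and 3 higher, and on log2(RPKM + 0.1) values 4 and 4. Wnt5a, a ligand of mesenchyme, was 5.88-fold lower (17.8 ± 1.18 CPM in 2xSCS70 and 105 ± 6.96 CPM in 2xSCS2F10, edgeR adjusted p = 6.48e-04), and the receptor Fgfr1 4.55-fold lower (22 ± 0.896 CPM in 2xSCS70 and 100 ± 46.3 CPM in 2xSCS2F10, adjusted p = 0.00886). In the TGF-beta pathway Tgfb3 was 1.98-fold (adjusted p = 0.00659) and Smad2 1.63-fold lower (adjusted p = 0.00871). Smad2 lost its call on both RPKM scales, and of the 18 genes Wnt5a alone stayed called without either 2xSCS70 library. Of 8 genes that modify or turn over Snail protein, 2 rose and 3 fell (median -0.17). On log2(RPKM + 1) and log2(RPKM + 0.1) values 2 were higher and 0 lower, the calls of Fbxl14 and Csnk2a1 were lost, and the median turned to 0.06 and 0.07. The kinase Pak1 was 3.65-fold higher (75.1 ± 2.41 CPM in 2xSCS70 and 20.6 ± 4.87 CPM in 2xSCS2F10, adjusted p = 0.00327) and the deubiquitinase Usp27x 1.99-fold higher (adjusted p = 0.0223), while the ubiquitin ligase gene Fbxl14 was 1.82-fold lower (adjusted p = 0.00809) and the kinase gene Csnk2a1 1.48-fold lower (adjusted p = 0.0184). None of these 5 calls of Snail regulators remained without 2xSCS70 replicate 1 or without replicate 2, with Pak1 at adjusted p = 0.0556 and 0.051.

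**Figure D5:**
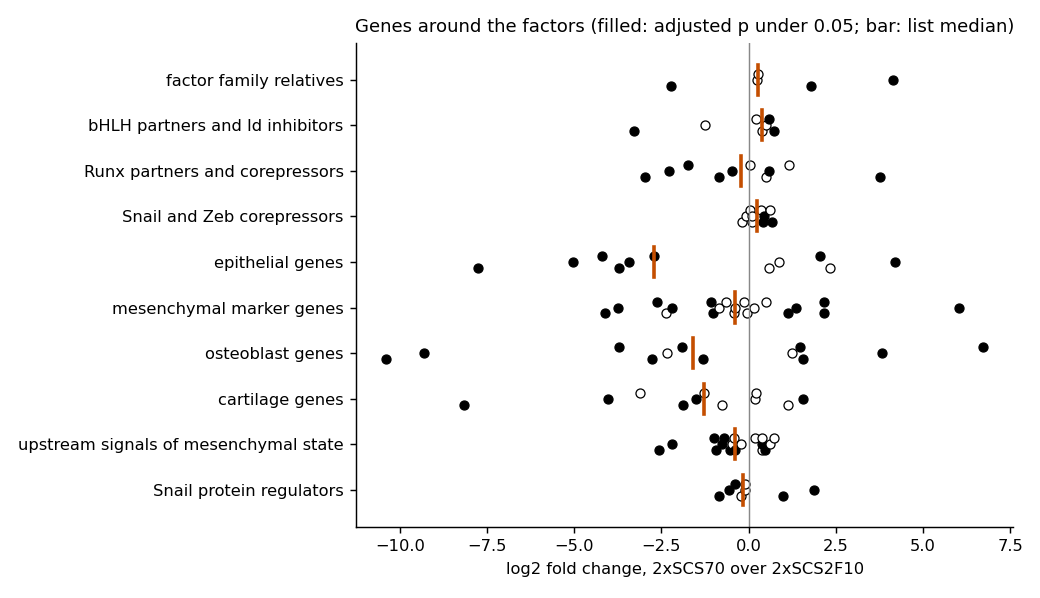
Log2 fold change, 2xSCS70 over 2xSCS2F10, of every tested gene of the 10 lists, filled where the edgeR adjusted p was under 0.05, with a bar at the median of each list. Epithelial, osteoblast and cartilage genes have edgeR medians of -2.72, -1.61 and -1.27 with genes on both sides of 0, and the leftmost point, Bmp2, has 0 counts in 2xSCS70, so that its fitted value depends on the prior count.

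The genes most like each factor over the 4 libraries were found by the Euclidean distance of log2 CPM among the 12325 genes averaging 1 CPM or more. Nearest to Twist2 was the VEGF receptor gene Flt1 (distance 0.631), with 15.7 and 16.5 CPM in 2xSCS70 against 0.205 and 0.0525 CPM in 2xSCS2F10, and then Peg12 (0.734). Nearest to Prrx2 was the lysophosphatidic acid receptor gene Lpar4 (distance 0.344), with 0.0363 and 0.0411 CPM in 2xSCS70 against 9.66 and 4.25 CPM in 2xSCS2F10, and then Frmd7 (0.541). For Snai1 they were Rdh10 (0.479) and Stau2 (0.491), and for Runx2 Fam135a (0.122) and Ciapin1 (0.171). Runx1 was nearest to the calcium pump gene Atp2b4 (0.521), which had 207 CPM in both 2xSCS70 libraries and 103 and 279 CPM in 2xSCS2F10, and to Creg1 (0.596). The nearest gene was Ino80c for Twist1 (0.207), Mlc1 for Prrx1 (0.816), Cdkn2aipnl for Snai2 (0.154) and Hbp1 for Zeb1 (0.0189). A factor with a common profile has many near neighbours, so distances are a description only.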

How the data were processed

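Per the labels' protocols, a Qiagen miRNeasy kit gave total RNA and an Illumina TruSeq mRNA kit the libraries. Processing used TopHat2 2.0.6, Bowtie and HTSeq on mm10, per the submitters' processing notes. No gene annotation or strand setting of the counting is named there. Raw counts per gene were deposited by the authors, per the file headers. They also deposited RPKM, per the file headers, with 1 fixed read number per library as denominator (62928743 and 61554553 for 2xSCS70, 50468212 and 59036269 for 2xSCS2F10). A total of 25 gene names turned into dates were put back from tables that kept them, and 69 rows that shared a name were kept apart by position.

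The main test was the quasi-likelihood test of edgeR 4.0.16 (R 4.3.3) on deposited counts, after filterByExpr and TMM, adjusted by Benjamini-Hochberg over 14496 genes at 0.05. The SE of a fold change is its absolute log2 value over the square root of F. The common biological coefficient of variation was 20.4%. Intervals and floors cover counting error only. The alternatives were RLE and upper quartile scaling, no filter, DESeq2 1.42.0, limma 3.58.1 on log2(RPKM + 1) and log2(RPKM + 0.1), a replicate block, each library left out and, chosen after seeing the data, fragments in place of counts. A line left with 1 library was assumed as variable as its counterpart.

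The 10 genes and the lists were chosen with earlier results of these data known. The rule for named genes took all 10 genes, up to 4 called genes of each list by adjusted p, and the 2 genes nearest to each factor, of which 1 is not reported here. Further genes named after their values were seen are Id1, Id2 and Id3 beside those marked in the text. Promoter windows came from RefSeq (GRCm38.p6) by symbol, and the windows printed are those of 5 of the 10 genes and of Runx3. Tables used Python 3.11.15, pandas 2.3.3, scipy 1.17.1 and numpy 2.4.6, and plots matplotlib 3.10.9.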

Additional observations from a re-analysis of the deposited data

How the results depend on the processing

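Of the 10 factors, Twist2 and Prrx2 stayed called in the same direction, and Prrx1 stayed uncalled, under all 12 alternatives. Snai1 and Runx2 lost their calls in 2 of them, each time with a 2xSCS70 library left out. Leaving out 1 library gave 1 to 5 higher factors (3 with all libraries) and 1 to 4 lower ones (1 with all). Over all genes it gave 291 to 4772 higher calls (2727 with all) and 559 to 4795 lower ones (3161), and over the lists 4 to 38 higher (25) and 8 to 53 lower (40). The fewest calls came with a 2xSCS70 library left out, where the spread came from the more variable 2xSCS2F10. Calls without a 2xSCS2F10 library used only the spread of the closer 2xSCS70 replicates and are not stronger evidence. Lower calls over all genes numbered 1828 on log2(RPKM + 1) and 1964 on log2(RPKM + 0.1) values, and 63.8% and 63.2% of calls were then higher, against 46.3% in edgeR. All tested genes had a median log2 fold change of 0.02 in edgeR, which was 0.15 and 0.25 on those values and 0.11 with upper quartile scaling. On the RPKM scales the change of Twist2 was 3.09 and 5.55 and that of Prrx2 -2.50 and -5.23. Signs turned with a library left out for Zeb1 (-0.25 to 0.38, and -0.00177 without 2xSCS70 replicate 2), Runx1 (-0.53 to 1.53), Id1 (-2.01 to 0.41), Id2 (-0.46 to 2.59), Id3 (-0.56 to 1.88) and Vim (-0.31 to 0.09), the ends of each range coming from the 2xSCS2F10 libraries, and for Vim also on both RPKM scales (0.13 each). The cause was not tested. Shares from counts not divided by length were 93.7% in 2xSCS70 and 13.1% in 2xSCS2F10 for Prrx1 of its pair, 57% in 2xSCS70 for Snai1, and 58.8% and 49.8% for Zeb1, since the paralogs differ in length.

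Deviations of same-numbered libraries were nearly uncorrelated between the lines (correlation over genes 0.0539). This value rests on 1 replicate difference per line, so it cannot decide whether libraries of the same number shared a batch. Whether they did is not stated. The main test did not pair the numbers. With the replicate number as a block, 2381 genes were higher and 2841 lower, and 3 and 1 of the factors. The block left 1 of the 3 corepressors of Snail and Zeb called (Rcor1), and 0 higher and 7 lower of the upstream signals. Depth limits the size of the Twist2 and Prrx2 folds, which rest on 6 fragments in 2xSCS2F10 and 2 in 2xSCS70.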
